A study of Mus musculus with 12 samples.

Results

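Macrophages clear dying cells by efferocytosis, and 10 genes of this process were followed in sorted mouse tumour macrophages: the receptor kinases Mertk, Axl and Tyro3, the bridging proteins Gas6, Pros1 and Mfge8, the receptors Stab1, Cd300lf and Msr1, and the engulfment adaptor Elmo1. They were chosen by name, as the 14 array probes that carry one of these 10 symbols, and all 10 were among the 20370 genes tested. Each sample was hybridised to an Agilent 4x44K mouse array in a single colour, 12 arrays in all. There were 6 arrays of macrophages labelled YFP+ and 6 of macrophages labelled YFP-, all from pancreas tumours of female C57/B6 mice aged 8 to 10 weeks into which tumours had been implanted. No genotype is given for them, and the series text names wild-type, KPC and FLT3-CRE/LSL-YFP mice. In the last of these, Cre under Flt3 control, a receptor of haematopoietic progenitors, removes a stop cassette in front of a YFP reporter. Whether every sample came from such mice, and whether equal tumour numbers in the titles mean the same animal, is not stated. The p-values therefore rest on the spread between arrays alone, some of which may be technical.

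A dying cell exposes phosphatidylserine on its outer membrane. Some receptors bind this lipid themselves, while the TAM kinases Tyro3, Axl and Mertk bind it through the bridging ligands Gas6 and protein S, and integrins through Mfge8. Signals from the engaged receptors reach the small GTPase Rac through adaptors that include Elmo1, and the cell is drawn in and digested. In tumours this uptake is known for dampening inflammation, and Mertk also serves as a general macrophage marker.

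The arrays reported these genes through 60-base probes. Of the 10 genes, 7 had a single probe and 3 had several, and the first 30 bases of the latter are shown because probes of 1 gene did not always give the same picture. Capitals mark a stretch of 23 bases, within the 30 shown, that 2 overlapping Cd300lf probes share. By their positions the overlap of these 2 probes continues past the bases shown.
Tyro3 A_55_P2038252: atcaacattgagagagctgagcagcctact
Tyro3 A_55_P2038247: gcaggctcttgctgttaggaacatttctaa
Cd300lf A_55_P2081164: gggttggGTGGAGTTGAATTGATTGTGTAC
Cd300lf A_52_P422494: GTGGAGTTGAATTGATTGTGTACtttcaga
Cd300lf A_55_P2004511: taggcccaaaatataaccacaagggtctgt
Msr1 A_52_P127130: gacactgcttgatgttcaactccatacaga
Msr1 A_52_P607128: aagtcatcttacatccaaaactacacgtat
The first probe listed for each gene had the highest mean signal and stood for the gene. Of the 14 probes, 13 were well above background on all 12 arrays, the exception being Tyro3 A_55_P2038247, which passed on 1 YFP+ and 2 YFP- arrays. Positions below are those of the array's mm9 annotation.

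The 10 clearance genes gave no difference between YFP+ and YFP- macrophages that passed the test. By limma with Benjamini-Hochberg adjustment over all genes, 0 of 10 had an adjusted p under 0.05, against 1.75% of all genes tested. At an unadjusted p under 0.05 the count was also 0, where 11.2% of all genes passed. In 0 of 10 did the groups separate completely, which 1.88% of all genes did. The log2 differences, YFP+ minus YFP-, were positive for 6 genes and negative for 4, with a median of 0.11, and the median over all genes was -0.03. With arrays centred on their median, 7 were positive, the median of the 10 was 0.32 and that of all genes 0.18. Their median size without regard to sign was 0.293, and that of all genes 0.287. The 95% intervals reached from -1.06 at the lowest bound, for Gas6, to 1.25 at the highest, for Elmo1, which allows differences of up to 2.37-fold. In sorted bulk RNA, fewer cells that express a gene and less of its RNA per cell cannot be told apart.

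**Figure D1:**
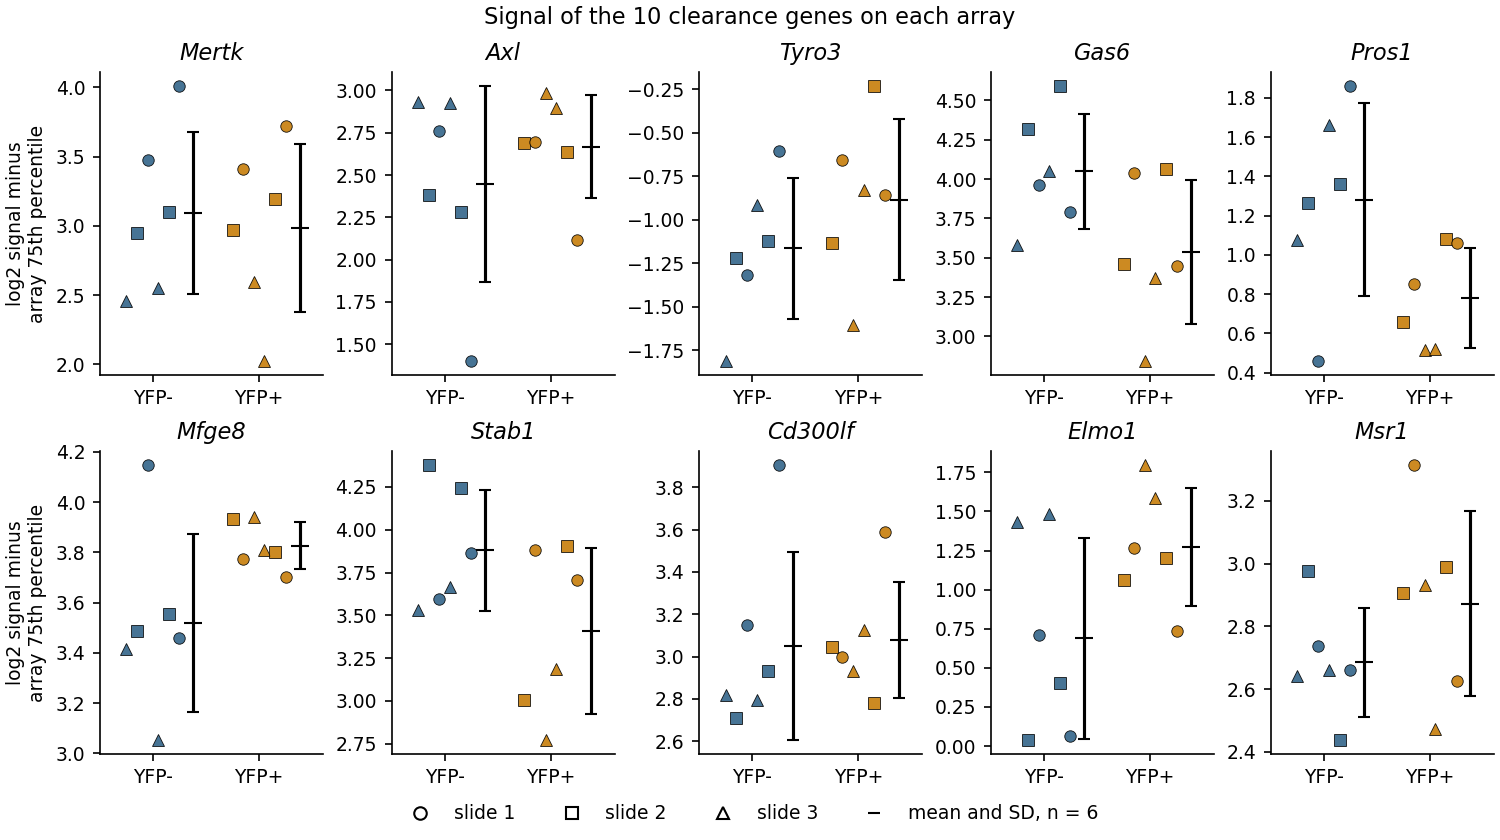
Signal of each of the 10 clearance genes on each array, as log2 processed signal minus the array's 75th percentile, for 6 YFP- (blue) and 6 YFP+ (orange) arrays. Symbols give the slide, and black bars the mean and SD (n = 6). The groups overlap in all 10 panels, and the slide 3 triangles are the lowest points for Mertk and the highest for Axl and Elmo1.

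Levels are given as log2 signal minus the array's 75th percentile, so 0 is the signal of a probe at that percentile, and levels of different probes are not comparable. Mertk, the TAM kinase typical of mature macrophages, was read at chr2:128627867-128627924 (plus strand). Its level ran from 2.02 over a median of 3.08 to 3.72 in YFP+ and from 2.46 over 3.02 to 4.01 in YFP-. The groups covered nearly the same range, and 3 of 6 YFP+ arrays lay above the YFP- median. The difference was -0.11 (SE 0.34, n = 6 per group, 95% interval -0.84 to 0.62, limma adjusted p = 0.95), and -0.18, 0.06 and -0.20 within slides 1, 2 and 3.

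Axl, the TAM kinase induced under inflammatory conditions, was read at chr7:26542541-26542600 (minus strand). YFP+ arrays lay between 2.11 and 2.99 with a median of 2.69, and YFP- arrays between 1.40 and 2.93 with a median of 2.57. 1 low YFP- array widened that group, and 5 of 6 YFP+ arrays were above the YFP- median. The log2 difference was 0.22 (SE 0.27, 95% interval -0.37 to 0.82, limma adjusted p = 0.85), with 0.32, 0.33 and 0.01 within the slides.

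Tyro3, the TAM kinase best known from the nervous system, was read at chr2:119642510-119642569 (plus strand) and was the member with levels below the 75th percentile on every array. They ran from -1.61 over -0.84 to -0.23 in YFP+ and from -1.81 over -1.17 to -0.60 in YFP-. The difference of 0.28 (SE 0.26, interval -0.29 to 0.85, limma adjusted p = 0.78) was 0.20, 0.49 and 0.15 within the slides. The other Tyro3 probe, at chr2:119643759-119643818, lay further along the same transcript and was at -2.94 or lower on every array, and was not tested.

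Within an array, a ratio of 2 genes does not depend on how arrays are scaled, and 4 pairs were compared by exact two-sided permutation tests, adjusted over the 4. Such a log2 ratio of 2 probes has no meaning at 0, and only its change between arrays can be read. The Axl over Mertk ratio averaged -0.32 ± 0.87 on YFP+ arrays and -0.64 ± 1.11 on YFP- arrays (SD, n = 6 each, exact permutation p = 0.58, adjusted 0.97). Axl over Tyro3 differed by -0.06 between the groups (exact permutation p = 0.90, adjusted 0.97). For Mertk over Tyro3 the means were 3.87 ± 0.62 and 4.26 ± 0.46 (SD, n = 6 each), a difference of -0.39 that was -0.38, -0.43 and -0.34 within slides 1, 2 and 3 (exact permutation p = 0.23, adjusted 0.93). None of the 3 ratios among the TAM kinases passed this test, which takes the arrays as unpaired.

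The bridging ligands of the TAM kinases had lower means in YFP+, by about as much for Gas6 as for Pros1, and neither difference passed the test. Gas6, the vitamin K dependent ligand of all TAM kinases, was read at chr8:13465444-13465503 (minus strand). Its level ran from 2.84 over 3.45 to 4.06 in YFP+ and from 3.58 over 4.01 to 4.59 in YFP-. On 4 of 6 YFP+ arrays Gas6 was below the lowest YFP- array, and the other two lay inside the YFP- range. The YFP- mean exceeded the YFP+ mean 1.43-fold (log2 difference -0.51, SE 0.25, 95% interval -1.06 to 0.04, limma adjusted p = 0.49), and the interval allows up to 2.09-fold. Within the slides the difference was -0.13, -0.70 and -0.71.

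Pros1 encodes protein S, an anticoagulant that also binds Tyro3 and Mertk, and was read at chr16:62928674-62928733 (plus strand). YFP+ arrays lay between 0.52 and 1.08 (median 0.75), and YFP- arrays between 0.46 and 1.86 (median 1.31). All 6 YFP+ arrays were below the YFP- median, so 0 of 6 were above it, but the lowest array of all was YFP-. The log2 difference of -0.50 (SE 0.24, interval -1.03 to 0.03, limma adjusted p = 0.48) corresponds to 1.41-fold, and was -0.21, -0.44 and -0.85 within the slides. The Gas6 over Pros1 ratio averaged 2.76 ± 0.34 on YFP+ arrays and 2.77 ± 0.59 on YFP- arrays (SD, n = 6 each, exact permutation p = 0.97, adjusted 0.97).

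Mfge8, which links phosphatidylserine to integrins, had the tightest YFP+ values of the 10 genes. Read at chr7:86278689-86278748 (minus strand), it lay between 3.70 and 3.94 in YFP+ (median 3.81) and between 3.05 and 4.15 in YFP- (median 3.47). All 6 YFP+ arrays were above the YFP- median and inside the YFP- range, which 1 high YFP- array on slide 1 extended upward. The means were 3.83 ± 0.09 and 3.52 ± 0.35 (SD, n = 6 each), a difference of 0.31 (SE 0.19, interval -0.10 to 0.72, limma adjusted p = 0.61). It was -0.07, 0.35 and 0.64 within slides 1, 2 and 3. Its sign was therefore opposite to that of Gas6 and Pros1, and none of the 3 bridges passed the test.

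Among the other receptors, Stab1 had the largest difference in size. It encodes stabilin-1, a scavenger receptor of alternatively activated and resident macrophages, and was read at chr14:31952288-31952347 (minus strand). YFP+ arrays ran from 2.77 over 3.45 to 3.91 and YFP- arrays from 3.53 over 3.76 to 4.38. On 3 of 6 YFP+ arrays the level was below the lowest YFP- array, and 2 of 6 were above the YFP- median. The log2 difference was -0.47 (SE 0.26, interval -1.03 to 0.09, limma adjusted p = 0.55), and it was 0.07 on slide 1, -0.86 on slide 2 and -0.62 on slide 3.

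Cd300lf, a phosphatidylserine receptor of myeloid cells that carries inhibitory motifs, was read by 3 probes at its chromosome 11 locus. The probe with the highest mean, at chr11:114977540-114977599 (minus strand), ran from 2.78 over 3.02 to 3.59 in YFP+ and from 2.71 over 2.87 to 3.90 in YFP-. The groups covered the same range, and the difference was 0.03 (SE 0.23, interval -0.48 to 0.53, limma adjusted p = 0.99), or -0.23, 0.09 and 0.22 within the slides. The overlapping probe at chr11:114977533-114977592, which shares the capitals above, differed by 0.10. The third, at chr11:114977796-114977855 and without that stretch, differed by 0.39 (limma adjusted p over all probes 0.72). All 3 probes thus had the same sign and none passed.

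Msr1, scavenger receptor A, binds modified lipoproteins and apoptotic cells. Its used probe, at chr8:40709296-40709355 (minus strand), lies in sequence listed for 2 RefSeq mRNAs, and the other, at chr8:40689158-40689217, is listed for 1. The used probe ran from 2.47 over 2.92 to 3.31 in YFP+ and from 2.44 over 2.66 to 2.98 in YFP-. The groups overlapped, with 2 of 6 YFP+ arrays above the highest YFP- array. The difference was 0.19 (SE 0.18, interval -0.21 to 0.58, limma adjusted p = 0.79), with 0.27, 0.24 and 0.05 within the slides. On the other probe it was 0.013 (limma adjusted p over all probes 0.996), so neither probe passed.

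Elmo1, the adaptor that acts with a Dock-family exchange factor to activate Rac, had the largest positive difference of the 10. The array annotation gives no position for its probe, which starts at base 2202 of transcript NM_080288. Levels ran from 0.74 over 1.23 to 1.80 in YFP+ and from 0.04 over 0.56 to 1.48 in YFP-. All 6 YFP+ arrays were above the YFP- median, 2 of them above the highest YFP- array. The YFP+ mean exceeded the YFP- mean 1.5-fold (log2 difference 0.59, SE 0.30, 95% interval -0.07 to 1.25, limma adjusted p = 0.52). Within slides 1, 2 and 3 the difference was 0.61, 0.91 and 0.24, and with slide as a block the adjusted p was 0.13, still above 0.05.

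**Figure D2:**
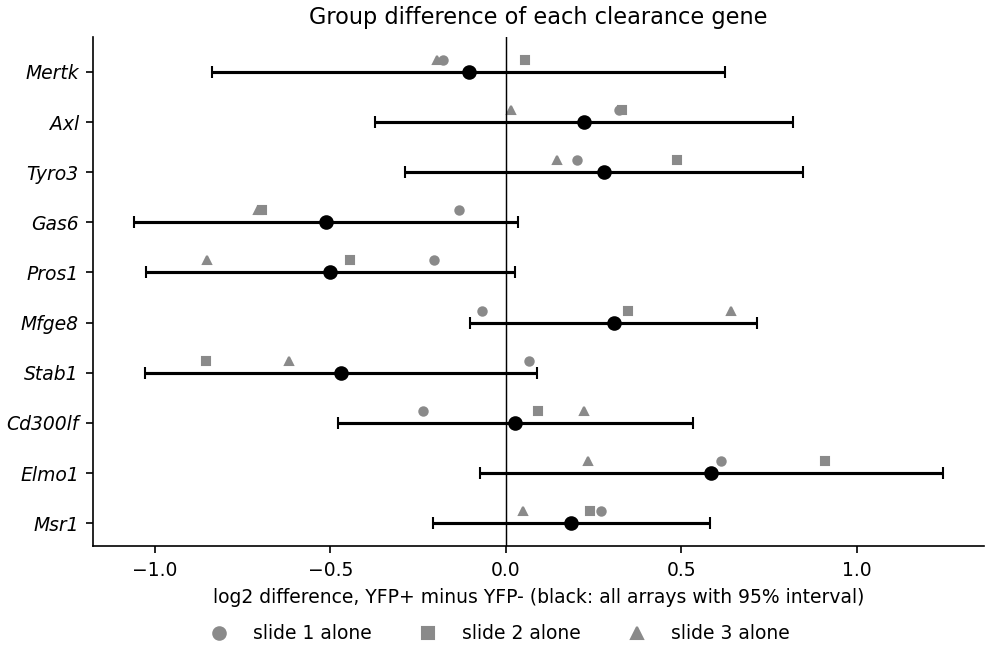
Log2 difference, YFP+ minus YFP-, of each of the 10 clearance genes, with its 95% limma interval over 12 arrays (black) and the difference within each slide, 2 arrays against 2 (grey symbols). Every interval includes 0, from Gas6 at -0.51 to Elmo1 at 0.59.

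The sign was the same on all 3 slides for 6 of the 10 genes: Axl, Tyro3, Gas6, Pros1, Elmo1 and Msr1. The share of all genes with the same sign on all slides was not counted, so this count has no background beside it. A test of whether the group difference itself varied with slide called 0 of 10 genes, with 0 at an unadjusted p under 0.05, and 0.00982% of all genes (limma, adjusted p under 0.05). The spread between arrays of a group differed among the genes. The within-group SD was 0.59 for Mertk, 0.53 for Elmo1 and 0.46 for Axl, and 0.24 for Msr1 and 0.26 for Mfge8. The median of the 10 was 0.42, and that of all genes tested was 0.62.

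Part of that spread followed the slide. Each slide held 4 arrays, 2 of each group, so slide and group can be told apart, but slide and the samples placed on it cannot. These slide comparisons were added after the values were seen. Mertk differed between slides (limma F test, adjusted p = 0.0053), with means of 3.65 ± 0.27, 3.05 ± 0.12 and 2.41 ± 0.26 on slides 1, 2 and 3 (SD, n = 4 each). Its 4 arrays on slide 3 lay between 2.02 and 2.60, all below the 8 arrays of the other slides, which lay between 2.95 and 4.01. Elmo1 was highest on slide 3 (limma adjusted p = 0.024), with means of 0.69 ± 0.49, 0.68 ± 0.55 and 1.57 ± 0.16. Its slide 3 arrays lay between 1.43 and 1.80 and the other 8 between 0.04 and 1.26.

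Axl was highest on slide 3 too, without passing the test (limma adjusted p = 0.19). Its 4 slide 3 arrays lay close together, between 2.90 and 2.99, and above the other 8, which ran from 1.40 to 2.76. The Axl over Mertk ratio was between 0.37 and 0.87 on slide 3, between -0.82 and -0.28 on slide 2 and between -2.61 and -0.72 on slide 1, in both groups alike. A difference between slides was common on these arrays: 20.6% of all genes passed the same test, against 2 of the 10 clearance genes, which is near that background. The slide 3 arrays separated completely from the other 8 for 16.2% of all genes and for 3 of the 10. They were all lower for 11.9% of genes, Mertk among them, and all higher for 4.38%, with Axl and Elmo1.

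**Figure D3:**
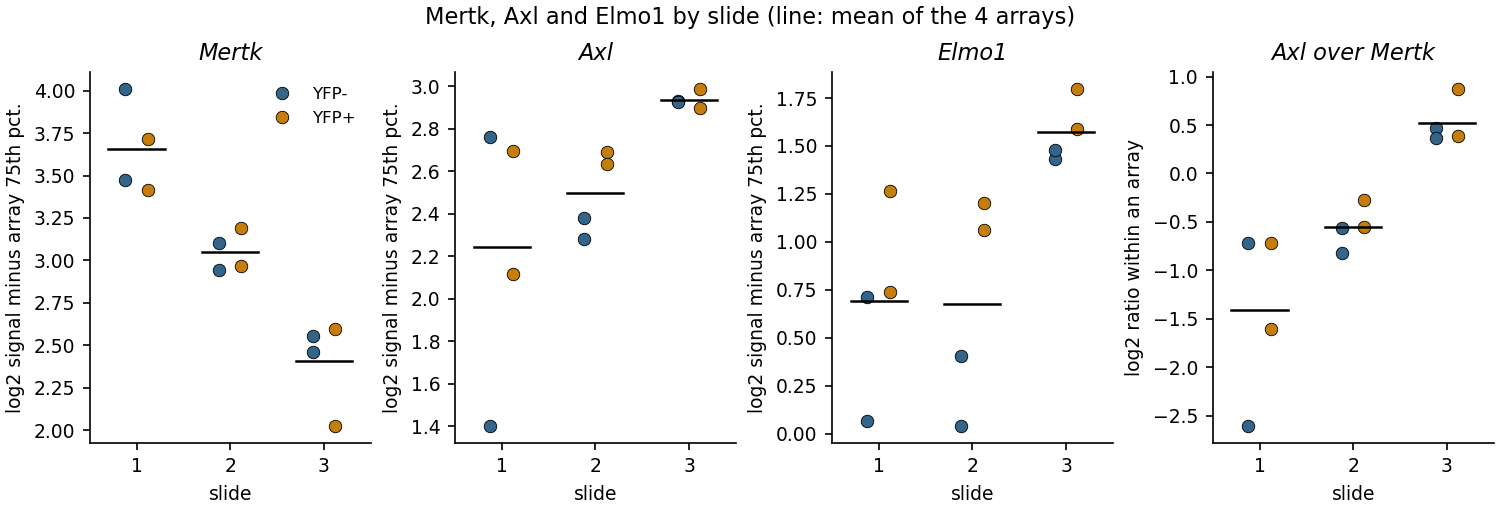
Log2 signal minus the array's 75th percentile of Mertk, Axl and Elmo1, and the within-array log2 ratio of Axl over Mertk, on the 3 slides for YFP- (blue) and YFP+ (orange) arrays, with the mean of 4 arrays as a line. On slide 3, Mertk is lowest (2.02 to 2.60) and Axl and Elmo1 are highest, in both groups.

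Macrophage markers moved with slide as well. All 18 markers tested besides Mertk, among them Csf1r, Adgre1, Cd68 and C1qa, were well above background on all 12 arrays. Their summed signal relative to the 75th percentile was 299.6 to 406 on slide 3 and 432 to 552 on slides 1 and 2. Some pathway lists showed the same, but not all of them are separate from these markers. Cd68 and Cd14 are also counted among the other receptors, and C1qa, C1qb and C1qc among the bridges and opsonins. The lipid sensing and the TAM and phagosome lists share no gene with the macrophage markers. Whether the pattern is particular to macrophage markers was not tested. Among the pathway lists described below, sums of other receptors (114 to 126) and lipid sensing genes (94.5 to 120) were also lower on slide 3. On slides 1 and 2 they were 143 to 197 and 143 to 174. The sums of bridges and opsonins and of TAM and phagosome genes likewise did not overlap, while engulfment and find-me ones did. The part of macrophage markers in the slide pattern of Mertk, Axl and Elmo1 was not tested. Between the groups the macrophage marker sum overlapped, at 299.6 to 490 in YFP+ and 345 to 552 in YFP-, with a median log2 difference of -0.17. By limma 0 of 18 were called, and 1 had an unadjusted p under 0.05.

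Markers of some other cells were lower in YFP+. Of 13 fibroblast markers, 7 were lower in YFP+ and 0 higher (limma, adjusted p under 0.05, where 1.41% of all genes were lower and 0.334% higher), among them Mfap5 (-2.59) and Postn (-2.53). Their summed level was 22.4 to 42.6 in YFP+ and 60.3 to 144 in YFP-. Of 13 epithelial markers 6 were lower, among them the tetraspanin Tspan8 (-3.36) and the keratin Krt8 (-2.59), with sums of 8.86 to 20.7 and 22.5 to 58.2. Another of the 6, Sox9, was well above background on 1 of 6 YFP+ and 6 of 6 YFP- arrays. Of 7 red cell genes 5 were lower, with sums of 9.60 to 60.2 and 67.8 to 168. Acinar genes had 1 of 15 lower, Cela1, which was well above background on 2 of 6 YFP+ and 6 of 6 YFP- arrays. Cela1 and Sox9 thus reached the test through the YFP- arrays. The acinar sums overlapped, at 6.22 to 36.9 and 16.6 to 158. The acinar median of -1.59 was -0.67, -0.49 and -4.14 within slides 1, 2 and 3.

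The 14 resident macrophage markers other than Gas6 had 0 calls by limma and 8 with an unadjusted p under 0.05, where 11.2% of all genes passed. Like the other lists, this one was written with earlier results of these data known. Of the 14, 13 were negative, with a median of -0.83, and -0.20, -0.97 and -1.08 within slides 1, 2 and 3. Their sums, 47.4 to 81.1 in YFP+ and 82.5 to 127 in YFP-, did not overlap. Bright genes weigh most in such a sum. Selenop, with the highest mean of the 14, separated alone (3.91 to 4.57 in YFP+ and 4.65 to 5.23 in YFP-). Complete separation was seen for 1.88% of all genes. The lowest p among the 14 belonged to Timd4, which binds phosphatidylserine on resident macrophages (-2.16, SE 0.51, n = 6 per group, limma adjusted p = 0.056). Monocyte, dendritic, B and plasma cell, T and NK cell, neutrophil and endothelial markers had 0 calls by limma, and 4, 3, 4, 0, 6 and 1 of them an unadjusted p under 0.05. Their medians were 0.28, 0.62, 0.55, 0.25, -1.60 and -0.10, in the same order. Each list held both signs, with 9 of 12, 9 of 12, 7 of 10, 5 of 7, 3 of 9 and 5 of 11 genes positive. The monocyte, B and plasma cell, neutrophil and endothelial genes with an unadjusted p under 0.05 included some of the sign opposite to their list's median. The neutrophil median was -0.30 with a filter on all arrays, -0.27 on slide 3 alone and -0.94 without tumour number 1. The dendritic one was 0.20 on slide 1 and 0.33 without YFP- replicate 6. Clearance genes can also be made by cells other than macrophages, whatever the sign of their difference. Of these genes 4 were negative, with Gas6, Pros1 and Stab1 near -0.5, and 6 positive, among them Mfge8 (0.31) and Axl (0.22). The part of fibroblast, epithelial or resident macrophage RNA in the values of the clearance genes was not tested.

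YFP+ arrays were also brighter before scaling. The 75th percentile of the processed signal averaged 3661 ± 265 over the YFP+ arrays, against 2642 ± 413 over the YFP- arrays (SD, n = 6 each; p = 0.0043 by a two-sided exact permutation test), and 64.6% ± 1.02 and 63.0% ± 1.18 of probes were well above background (exact permutation p = 0.035). Fitted with brightness as a covariate, the differences were 0.047 for Gas6, -0.012 for Elmo1, 0.44 for Mertk and -0.11 for Cd300lf, each of the opposite sign to the values above, with 0 of 10 genes called. The median SE of the 10 genes rose from 0.25 to 0.45 in that fit. Centring arrays on their median moved the median of all genes by 0.21, and with it Mertk, to 0.10.

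The rest of the clearance pathway gave 1 call. Of 103 genes on 6 lists outside the 10, 95 were tested, with a median log2 difference of -0.04. By limma (adjusted p under 0.05) 1 was lower in YFP+ and 0 higher, where 1.41% of all genes were lower and 0.334% higher. The 1 call is thus no more than that background. At an unadjusted p under 0.05 there were 13 of 95, against 11.2% of all genes. That 1 gene was Colec12, a scavenger receptor of the collectin family known from endothelium and stroma. It was well above background on 6 of 6 YFP- arrays and 2 of 6 YFP+ arrays. Levels ran from -7.38 over -6.35 to -3.47 in YFP+ and from -3.50 over -2.34 to -1.61 in YFP-, so that the ranges just met. The fitted log2 difference was -3.42 (SE 0.70, limma adjusted p = 0.028). It is no measured fold, since the signal was not well above background on 4 of 6 YFP+ arrays, and Colec12 reached the test through the YFP- arrays.

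Colec12 was called in 15 of 33 alternatives. Leaving out any 1 of 7 arrays (YFP+ replicates 1, 4 and 6, YFP- replicates 1, 2, 5 and 6) brought the limma adjusted p to between 0.057 and 0.065, and leaving out any of tumour numbers 1, 3, 4, 5 and 6 to between 0.058 and 0.11. It was 0.36 with brightness as a covariate and 0.098 with array weights. With a filter on all arrays Colec12 was not tested, and Timd4 was called. Without slide 1, 2 or 3 it was 0.069, 0.25 and 0.22. The fibroblast and epithelial markers above moved in the same direction, and their part was not tested.

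Apart from Colec12 the pathway lists had 0 calls by limma, and 0 to 3 genes a list had an unadjusted p under 0.05. By role, 22 of 24 other receptors were tested, 8 positive and 14 negative, with a median of -0.10. The 8 tested bridges and opsonins, 2 positive and 6 negative, had a median of -0.08. The smallest p values there belonged to the pentraxin Ptx3 (-0.48, adjusted p = 0.55), Anxa1, a phosphatidylserine-binding annexin (-0.34, adjusted p = 0.61), and calreticulin, Calr, an eat-me signal (0.29, adjusted p = 0.73).

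All 20 engulfment signalling genes were tested, 10 positive and 10 negative, with a median of -0.0037. The kinase Src had the smallest p (0.80, SE 0.26, limma adjusted p = 0.19), with levels between 0.71 and 1.68 in YFP+ and between 0.13 and 1.41 in YFP-. Arhgef16, an exchange factor that binds Elmo proteins, differed by -2.11 (adjusted p = 0.28) but was well above background on 1 of 6 YFP+ and 5 of 6 YFP- arrays. Elmo3, a relative of Elmo1 known from epithelia, differed by -1.04 (adjusted p = 0.30), opposite in sign to Elmo1.

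Find-me and don't-eat-me signals had 4 of 12 positive and a median of -0.12. The sphingosine phosphate receptor S1pr1 differed by -0.89 (adjusted p = 0.29), the nucleotide receptor P2ry2 by -0.90 (adjusted p = 0.37) and Adam17, the protease that sheds Mertk, by 0.55 (adjusted p = 0.43). Lipid sensing genes, which handle the cargo of engulfed cells, had 10 of 15 positive and a median of 0.19. Examples were the nuclear receptor Pparg (-0.93, adjusted p = 0.36), Soat1, which esterifies cholesterol (0.71, adjusted p = 0.41), and the lipase Lpl (0.50, adjusted p = 0.51).

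Genes downstream of the TAM kinases and of phagosome digestion had 8 of 18 positive and a median of -0.07. The growth factor Hgf (0.77, SE 0.28, adjusted p = 0.27) and the cytokine Tgfb1 (0.48, SE 0.19, adjusted p = 0.34), both known to be released on uptake of apoptotic cells, had the smallest p, followed by the autophagy gene Atg5 (0.32, adjusted p = 0.53). All adjusted p values of these lists are limma's over all 20370 genes, with n = 6 per group.

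**Figure D4:**
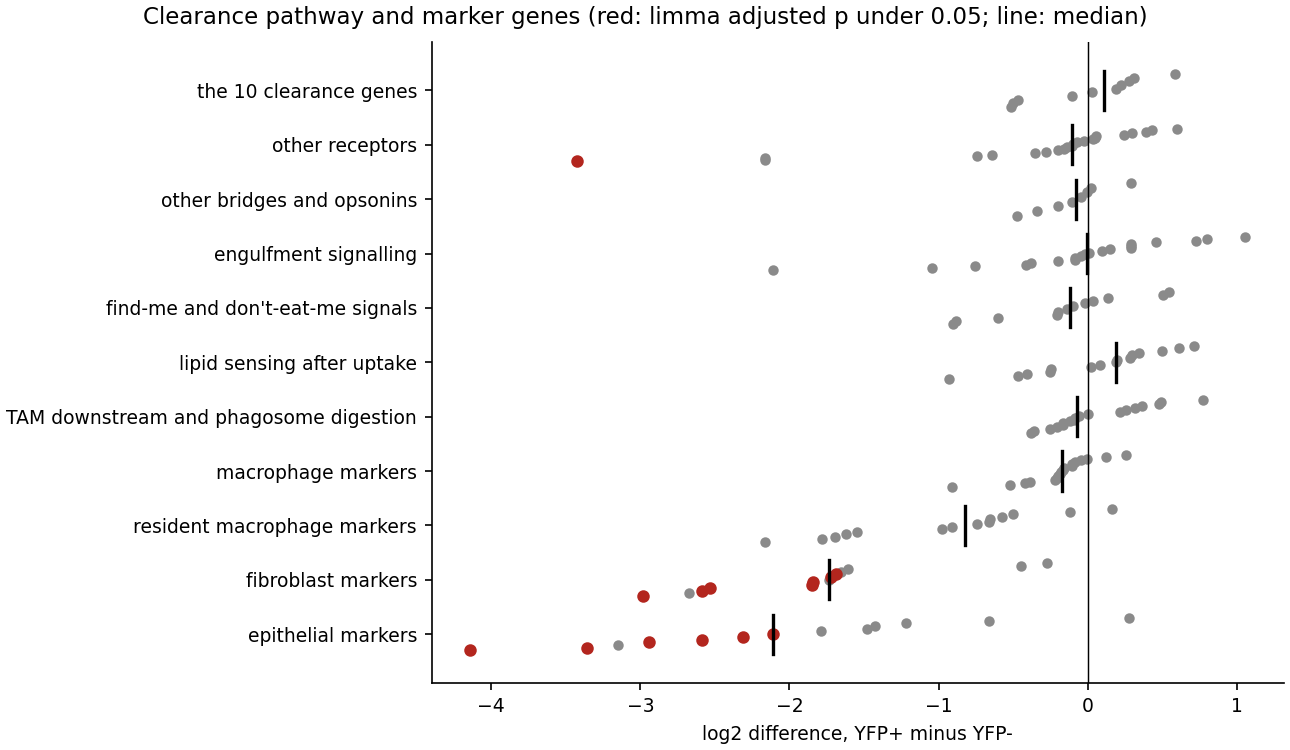
Log2 difference, YFP+ minus YFP-, of each tested gene of the 10 clearance genes, 6 pathway lists and 4 marker lists, with the list's median as a line and genes with a limma adjusted p under 0.05 in red. The clearance genes lie between -0.51 and 0.59, 1 pathway gene is red, and 7 fibroblast and 6 epithelial markers are red, all negative.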

How the data were processed

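RNA of FACS-sorted macrophages was extracted with an ENZO total RNA kit, amplified with Sigma-WTA2 and labelled with Cy5 by Kreatech ULS, per the labels' protocols. The deposited intensity values are the red processed signal of Agilent Feature Extraction 11.5.1.1, per the submitters' processing notes and the file headers, and arrays were not scaled to each other. A second set of values, deposited by the authors on a log2 scale (median 8.83, lowest rank correlation 0.99995 with the signal of the same array), served as an alternative. How it was normalized is not given in the sources used here, and 0 of its columns went unused.

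Control spots (1377 of 44397) and 2085 spots with outlier flags over all arrays were left out. Spots of a probe were averaged, and 35 of 39429 probes lacked a value on some array. The log2 processed signal minus each array's 75th percentile was used, with the red channel standing in for green. A probe had to be well above background on 6 or more of the 12 arrays (25435 were), and the probe with the highest mean stood for each of 20370 genes. Names of 28330 probes came through RefSeq accessions and 1403 changed; the GRCm38.p6 table gave names alone. The clearance genes were matched by the array's own names, and probe sequences are the array's. No table of protein sequences was used here.

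The YFP+ and YFP- arrays were set against each other in limma 3.58.1, under R 4.3.3 (functions lmFit and eBayes, group alone, Benjamini-Hochberg over all genes, threshold 0.05), checked on simulated data. Ratios and brightness were compared by exact permutation tests (scipy 1.17.1). The number of arrays limits the precision. The clearance genes and the pathway and marker lists were chosen with earlier results of these data known. Named genes are all 10 clearance genes and, per pathway list, called genes (at most 6) or otherwise the 3 with the smallest p. Per marker list at most 3 were named by p. The macrophage markers named beside them, and Sox9 for its detection, were chosen after their values were seen. Alternatives were the tumour number and slide as blocks, normexp (offset 50), quantile normalization, the deposited table, median centring, other filters, mean of probes, trend and robust variances, array weights, brightness, each probe alone, each slide alone, and leaving out arrays or tumour numbers. Leaving out each slide and the slide tests were added after the data were seen.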

Additional observations from a re-analysis of the deposited data

Results flagged for a closer look

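Over 28 groups of 6 arrays, formed from the 14 probes in each group, 2 held an array far from the others by Dixon's test, where chance gives about 1 in 20. For the Tyro3 probe A_55_P2038247, YFP+ replicate 5 had a level of -3.97, the only YFP+ array well above background, and the next array had -6.70. For the Cd300lf probe A_55_P2081164, YFP- replicate 6 had a level of 3.90 and the next array 3.15. That array lay on slide 1, as did the highest YFP+ array of this probe.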

How the results depend on the processing

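Under all 34 alternatives to the fit, 0 of the 10 clearance genes were called. Mertk and Cd300lf, whose differences were nearest 0, changed sign most easily: Mertk was 0.10 with median centring, 0.037 with array weights and 0.44 with brightness as a covariate, and -0.25 to 0.086 with arrays or tumour numbers left out. Cd300lf was -0.11 with brightness, -0.0065 without slide 2, -0.071 without slide 3 and -0.075 to 0.20 with arrays left out. With brightness, Gas6 was 0.047, Elmo1 -0.012, Anxa1 0.13, Pparg 0.010 and Soat1 -0.41.

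The tumour numbers were not shown to pair the samples: deviations of same-numbered arrays correlated at -0.30 to 0.37, and 5 of 12 arrays correlated best with their own number. Each array had 6 arrays of the other group to match, and the count was not tested against chance. Numbers 4, 5 and 6 had both arrays on the same slide, and correlated at 0.37, 0.19 and 0.28. Numbers 1, 2 and 3 were split over slides, and correlated at -0.30, 0.11 and -0.13. Slide was not removed in this check, so a shared slide and a shared animal cannot be told apart in it. Pairing therefore remains possible. With the replicate block, 0 clearance genes, 1 pathway gene (Timd4, with Colec12 at an adjusted p of 0.077) and 296 genes in all were called. The Mertk over Tyro3 difference of -0.39, negative in 6 of 6 numbers, had p = 0.031 by exact sign flips over the numbers, the smallest they can give, and 0.125 adjusted over the 4 pairs.

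Pathway genes called numbered 2, Colec12 and Timd4, with normexp and with trend and robust variances. There were 0 with array weights, brightness or any slide left out, and 0 to 2 with arrays left out. Without tumour number 1 the 1 pathway gene called was Src, higher in YFP+ (limma adjusted p = 0.026). Over all genes, 556 were called with slide as a block, 557 with the replicate block as a random term beside slide, 547 with normexp, 233 with a filter on all arrays, 11 with brightness, 151, 112 and 196 without slides 1, 2 and 3, and 204 to 383 with arrays left out. With median centring 33.5% of calls were higher in YFP+, against 19.1%.

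Marker medians that moved by more than the SD between arrays were the macrophage one with brightness (0.21), the resident one on slide 1 alone (-0.20), the B and plasma cell one with brightness (-0.28), the epithelial one on slide 3 alone (-2.60) and the acinar one with brightness (-3.53) and on slide 3 alone (-4.14). With arrays left out, some medians also moved by over 1.5 times. The macrophage median ran from -0.29 to -0.064 and the dendritic one from 0.33 to 0.76. The B and plasma cell one then ran from 0.37 to 0.91 and the T and NK cell one from 0.14 to 0.49. On slides 2 and 3 alone the B and plasma cell one was 1.14 and 1.02. The neutrophil median was -1.01 with normexp, -0.30 with the filter on all arrays, -1.19 with the mean of probes, -0.94 and -0.89 without slides 1 and 2, -0.27 on slide 3 alone, and -1.72 to -0.94 with arrays left out. With arrays left out, the ratio differences ran from -0.064 to 0.59 for Axl over Mertk, -0.38 to 0.17 for Axl over Tyro3 and -0.18 to 0.14 for Gas6 over Pros1. With normexp, Axl over Tyro3 was 0.042. The cause of these changes was not tested.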
